A study of Homo sapiens with 12 samples.

Results

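The loci of 7 genes of the insulin-like growth factor axis were followed in ATAC-seq peak lists: the receptor gene IGF1R, the adaptor genes IRS1 and IRS2, and the binding protein genes IGFBP2, IGFBP3, IGFBP4 and IGFBP5. Every peak whose summit lay in the RefSeq span of a gene or within 50 kb of it was taken from all 12 peak lists, and peaks of a gene that overlapped by at least 1 bp were merged into 1 site. This gave 138 distinct sites, from 957 summits, of the 166523 merged regions on chromosomes 1 to 22 and X. By gene there were 48 sites for IGF1R, 15 for IRS1, 5 for IRS2, 39 for IGFBP2, 13 for IGFBP3, 10 for IGFBP4 and 38 for IGFBP5. The spans of IGFBP2 and IGFBP5 lie 7.67 kb apart on chromosome 2, so their windows share 30 sites and together hold 47.

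All libraries came from MDA-MB-453, a human cell line established from breast cancer, of luminal type and expressing the androgen receptor. Each of 3 engineered lines carried an ectopic estrogen receptor alpha (ER) that doxycycline (Dox) induces: Y537S, a ligand-binding domain mutant known for activity without hormone, K303R, a hinge region mutant, or the wild-type receptor (WT). Every line was given Dox (2 ug/mL) with estradiol (E2, 1 nM), Dox alone, E2 alone or neither over 2 days, and 1 library of each form and treatment was made (12 in all). All groups, the untreated ones included, carry the inducible construct and grew in medium with serum, and the labels do not say whether a line is a single clone. With no replicates, values within an ER form are described without a test, and Dox and E2 were tested over the 3 forms together.

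The lists held 39522 (K303R untreated) to 133963 (Y537S Dox+E2) summits, and the background level that the peak caller used ranged from 0.143 to 0.442 fragments. The value given for a peak is the authors' fold enrichment of its summit over that background, and the lowest fold enrichment listed was 3.31 to 4.16, depending on the library. A site without a peak therefore had a signal under about that level at that depth and is not shown to be closed. In K303R the lowest fold listed was 4.16 untreated and 4.13 with E2, against 3.31 with Dox and 3.36 with Dox+E2. A fold of 4.13 or less in K303R with Dox is thus no higher than the floor of either library of that line without Dox. Tags in the peak names are read here as sequencing runs, though what they record is not given. By this reading all Y537S libraries were in 1 run and all K303R libraries with WT untreated and WT E2 in another. Both WT libraries with Dox were in the remaining run, so that Dox and run, so read, cannot be told apart in the WT line. Of 9 luminal marker genes, 8 to 9 had a peak at the gene end in each library. Of 10 markers of other cell types, 0 to 4 had one, and 6 of the 10 (KRT5, KRT14, TP63, PECAM1, DCN and ALB) had none in any library. The leukocyte marker PTPRC had a peak in all 4 Y537S libraries and in no other. CD3E and COL1A2 each had one in 4 libraries, and CDH5 had one in 2.

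The insulin-like growth factors IGF1 and IGF2 bind the receptor tyrosine kinase encoded by IGF1R, which phosphorylates the adaptor proteins IRS1 and IRS2; these recruit phosphatidylinositol 3-kinase and pass the signal on to AKT. The IGFBP proteins bind the growth factors outside the cell and either hold them from the receptor or carry them to it. In estrogen-responsive breast cancer cells several genes of the axis, IGF1R, IRS1 and IGFBP4 among them, are known estrogen receptor targets, and MDA-MB-453 cells without the construct have little or no ER alpha.

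The 250 bases that precede the annotated starts of IGF1R, IRS1, IGFBP3 and IGFBP4 are shown because the sites over these starts, described further on, ranged from open in every library to absent from a whole line. They are RefSeq sequence of GRCh38.p14, the assembly of the files' hg38 coordinates, read in the direction of the gene. They cover chr15:98648289-98648538 (plus strand), chr2:226799821-226800070 (minus strand), chr7:45921273-45921522 (minus strand) and chr17:40443200-40443449 (plus strand). Capitals mark GGGCGG, the GC box, GGTCA, the core of nuclear receptor motifs, and TATAAA, each searched on both strands, so that CCGCCC and TGACC are the same motifs read from the other strand.
IGF1R: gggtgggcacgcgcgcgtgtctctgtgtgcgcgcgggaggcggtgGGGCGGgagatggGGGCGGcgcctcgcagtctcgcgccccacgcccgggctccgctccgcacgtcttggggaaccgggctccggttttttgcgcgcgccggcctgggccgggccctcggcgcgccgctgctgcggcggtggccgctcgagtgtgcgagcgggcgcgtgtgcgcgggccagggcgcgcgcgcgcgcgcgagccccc
IRS1: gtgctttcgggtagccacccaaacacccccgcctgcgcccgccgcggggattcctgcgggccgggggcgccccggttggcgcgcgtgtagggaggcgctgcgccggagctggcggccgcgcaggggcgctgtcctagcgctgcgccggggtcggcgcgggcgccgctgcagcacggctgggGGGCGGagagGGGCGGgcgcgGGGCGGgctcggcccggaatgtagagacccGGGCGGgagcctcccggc
IGFBP3: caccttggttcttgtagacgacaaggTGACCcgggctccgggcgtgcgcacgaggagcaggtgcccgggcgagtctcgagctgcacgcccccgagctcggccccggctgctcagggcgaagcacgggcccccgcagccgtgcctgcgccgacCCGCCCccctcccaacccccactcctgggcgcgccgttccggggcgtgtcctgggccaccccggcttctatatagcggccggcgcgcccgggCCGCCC
IGFBP4: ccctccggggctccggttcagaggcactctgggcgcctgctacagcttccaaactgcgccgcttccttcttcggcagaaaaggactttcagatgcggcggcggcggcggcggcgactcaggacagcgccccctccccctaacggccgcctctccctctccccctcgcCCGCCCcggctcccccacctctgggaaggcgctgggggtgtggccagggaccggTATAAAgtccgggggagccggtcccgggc
IGF1R held 2 GC boxes, IRS1 held 4, IGFBP3 held 2 and a GGTCA core, and IGFBP4 held 1 GC box and a TATAAA. Among all 35116 starts in the RefSeq table, 42.6% held a GC box in the same window, 32.6% a GGTCA core and 10.7% a TATAAA. The motif TGANTCA, which 6.57% of all starts held, was in none of the windows of the 7 genes. IRS2 held 5 GC boxes, IGFBP2 1 GC box and 1 GGTCA core before its first start, and IGFBP5 none of the motifs searched. The merged sites over the starts covered all 250 bases at IGF1R, IRS1 and IRS2, 218 at IGFBP5 and 129 at IGFBP3, but 8 at IGFBP4 and 6 before the first start of IGFBP2.

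The first question was how much of the axis opened with Dox. No line without the construct was given Dox, and the peak lists do not measure the receptor. Dox itself and the induced receptor therefore cannot be told apart. A site was called Dox-gained in an ER form when it had a peak in both Dox libraries of that form and in neither library without Dox, and Dox-lost in the reverse case. In Y537S 23 of the 138 sites (16.7%) were gained, against 18.2% of all regions. In K303R 13 sites (9.42%) were gained, against 8.54% of all regions, and in WT 6 sites (4.35%), against 4.14%. Gained in all 3 forms were 2 sites (1.45%), 1 downstream of IGFBP3 and 1 inside IGFBP4, against 1.30% of all regions, and 7 sites (5.07%) were gained in at least 2 forms, against 4.08%. Lost sites numbered 10 in Y537S (7.25%, against 6.71% of all regions), 1 in K303R (0.725%, against 0.0799%), 0 in WT (against 2.08%) and 0 in at least 2 forms (against 0.609%). The shares of gained sites lay near those of all regions.

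**Figure D1:**
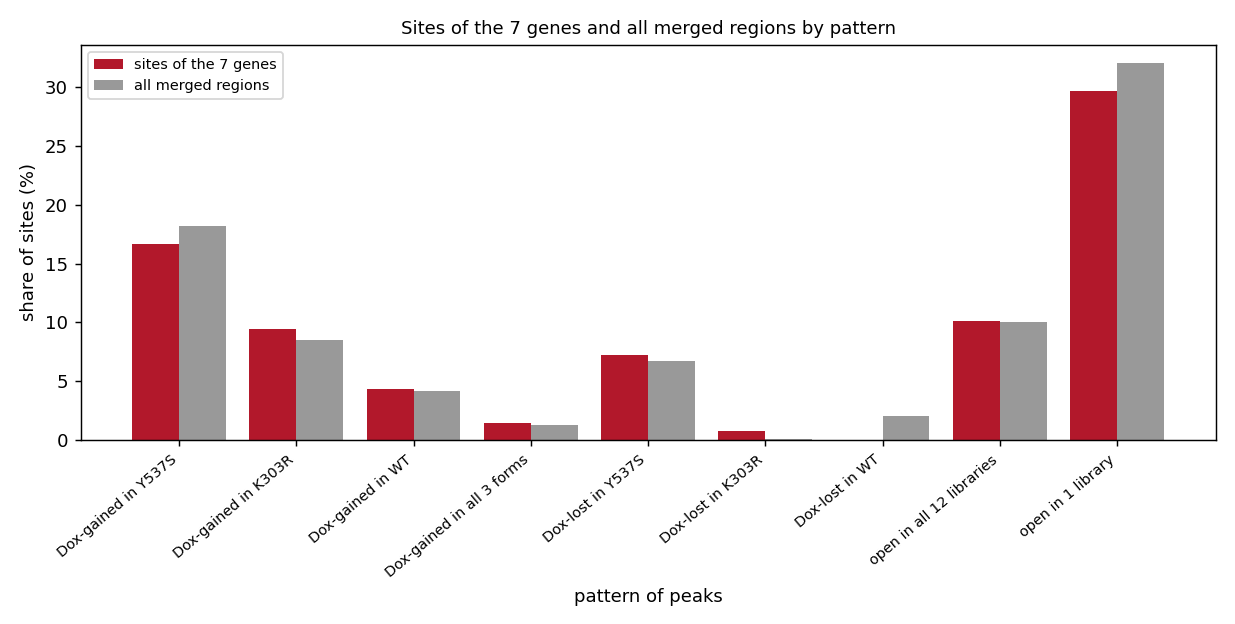
Share of sites (percent, vertical axis) that showed each pattern of peaks (horizontal axis), for the 138 sites of the 7 genes (red) and for all 166523 merged regions (grey). The paired bars for gained sites lie close together, such as 16.7% and 18.2% for Y537S, and no site of the axis was lost in WT.

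By number of sites with a peak, the Y537S line had 87 with Dox+E2, 80 with Dox, 74 with E2 and 65 untreated. The K303R line had 62, 53, 36 and 18 in the same order of treatments, and the WT line 36, 53, 42 and 26. In Y537S with Dox+E2, the library with the longest list, 63.0% of the 138 sites were open, against 55.7% of all regions, and in untreated K303R cells, with the shortest list, 13.0%, against 17.0%. Sites open in all 12 libraries numbered 14 (10.1%, against 9.99% of all regions), and 41 sites had a peak in 1 library only (29.7%, against 32.0%). The 14 constant sites had a median width of 1242 bp and a median distance of 9.82 kb to the nearest start of a member gene, and 10 of them lay inside a member gene. The 33 sites gained in at least 1 form had a median width of 383 bp and a median distance of 38.6 kb, 14 lay inside a member gene, and 1 covered a start. All merged regions of the same classes had similar median widths, 1178 bp and 419 bp.

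The test of Dox over all 12 libraries compared mean log2 fold enrichment with and without Dox within each form, a library without a peak being set to a fold of 1, by exact two-sided permutation of the labels within forms. At an unadjusted p under 0.05, 8 sites were higher with Dox (5.80%, against 5.60% of all regions) and 0 were lower (against 1.38%). No site passed Benjamini-Hochberg adjustment over all 166523 regions; the smallest p the exact permutation can give is 0.00926, and the smallest adjusted p of any region was 0.337. The median Dox difference was 0.36 on the log2 scale over the sites of the axis and 0.34 over all regions. The differences given below are in these units. A site named for its gain or loss had to differ, so its difference is a description without a test. For sites gained in at least 2 forms it is given with its range or values over 5 alternatives. These were peaks at a −log10 q of 5 or 10 or more, equal list length, a missing peak set to the lowest fold its library listed, and folds scaled to the library's constant regions. Missing peaks and scaled folds below the highest scaled floor of any library were set to that floor, so that low values tied. For sites gained or lost in 1 form only no such range was made.

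IGF1R encodes the receptor itself and spans chromosome 15, 98648539 to 98964530, on the plus strand. Its 48 sites had peaks at 26, 21, 30 and 26 of them in Y537S with Dox+E2, with Dox, with E2 and untreated, at 23, 20, 14 and 3 in K303R, and at 12, 20, 15 and 10 in WT. Dox went with more open sites in K303R, by 17 against untreated and by 9 in the presence of E2, but with fewer in Y537S, by -5 and -4, and with a difference of 10 and -3 in WT. With every list limited to its 39522 strongest peaks the same differences were 4 and 1 in K303R, -3 and 0 in Y537S, and -1 and 2 in WT. The untreated K303R library, which had 3 open IGF1R sites, is also the library with the shortest list. Over the 3 forms the mean was 20.3 open sites with Dox and 16.3 without, a difference of 4 that did not pass the exact permutation test (p = 0.306, adjusted p = 0.539 over 19405 protein-coding genes), and it was 0.50 at equal list length.

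**Figure D2:**
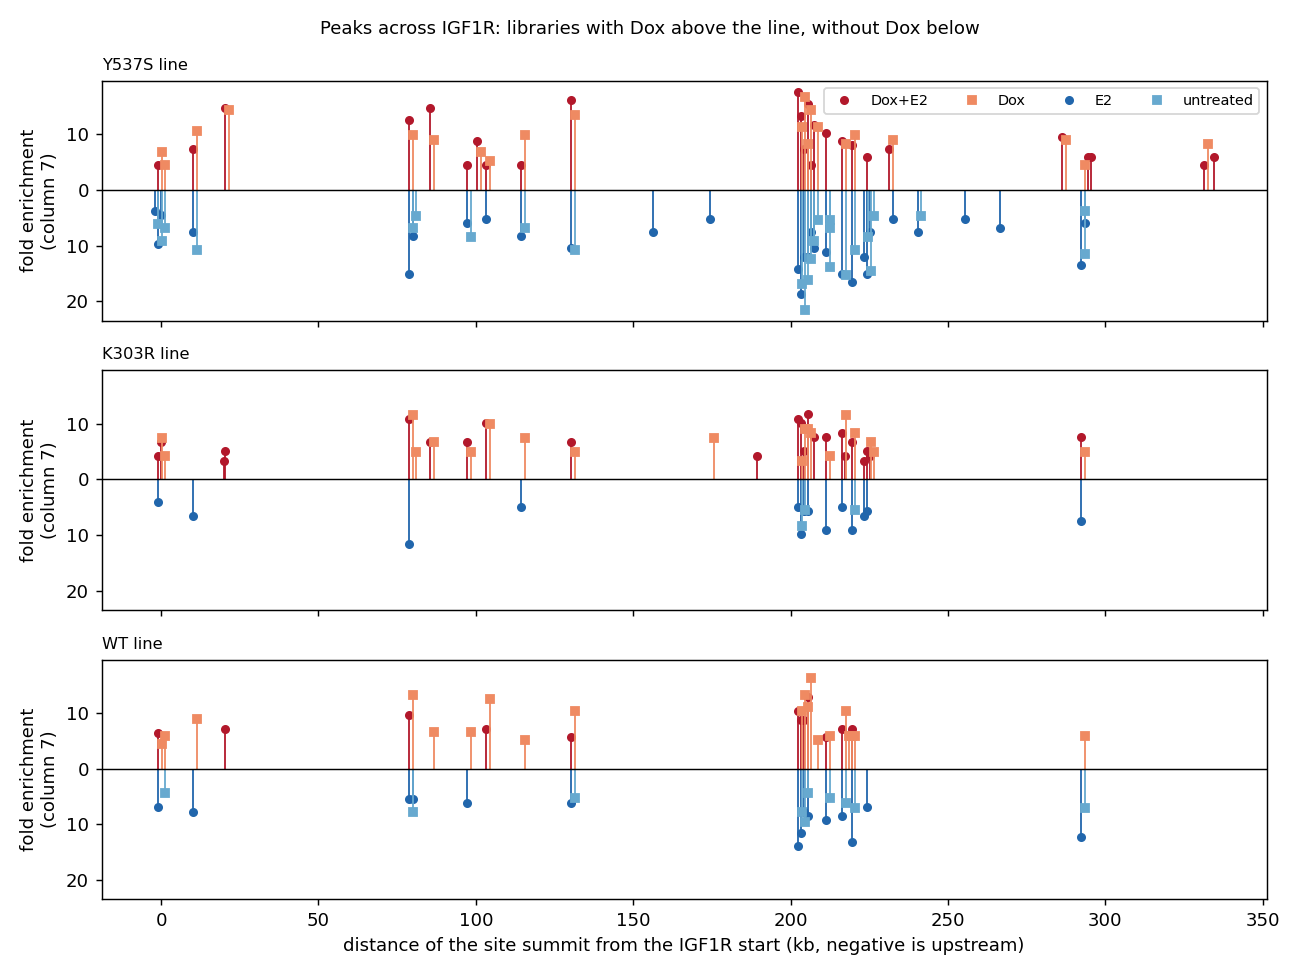
Fold enrichment of peaks (vertical axis, libraries with Dox above the line and without Dox below it) by distance from the IGF1R start in kb (horizontal axis), for the Y537S, K303R and WT lines; markers of the libraries in a panel are set slightly apart along the axis. Sites crowd 200 to 230 kb into the gene in every line, where 17 of the 48 sites lie.

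Many of the sites lay far inside the gene. Between 200 and 230 kb from the start, chromosome 15, 98850761 to 98875199, lay 17 of the 48 sites. Of these, 10, 7, 12 and 14 had a peak in Y537S with Dox+E2, with Dox, with E2 and untreated, 12, 9, 9 and 3 in K303R, and 7, 10, 8 and 6 in WT. The site with the highest fold enrichment at IGF1R, 204 kb from the start (98852213 to 98852955), was open in every library: 13.2, 16.6, 18.7 and 21.5 in Y537S in the same order, 10.1, 9.09, 9.91 and 5.55 in K303R, and 8.78, 13.2, 11.6 and 9.63 in WT. Its highest value was thus in untreated Y537S cells. Close by, 206 kb from the start (98853677 to 98854822), a site had 15.4, 14.3, 12 and 12.3 in Y537S, 11.7, 8.27, 5.78 and no peak in K303R, and 12.8, 16.2, 8.49 and no peak in WT. All Dox libraries of a form were above those without Dox there, and the site was one of the 8 past the unadjusted threshold, with a Dox difference of 1.54 (exact permutation p = 0.00926, adjusted p = 0.337).

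At 2 of the 48 IGF1R sites a peak was gained in more than 1 form, against 4.08% of all regions. The site 104 kb inside the gene (98751676 to 98752371) was gained in K303R, with 10.1 with Dox+E2 and 9.92 with Dox, and in WT, with 7.18 and 12.5, none of those lines having a peak there without Dox. In Y537S it had 4.40 with Dox+E2, 5.27 with Dox, 5.24 with E2 and no peak untreated, so that this line had the lowest values with Dox. Its Dox difference was 2.55, and 0.37 (scaled folds) to 2.19 over the alternatives. The site 86.1 kb inside the gene (98734385 to 98734788) was gained in Y537S, with 14.7 with Dox+E2 and 9.03 with Dox, and in K303R, with 6.71 and 6.61. WT had 6.61 with Dox and no other peak at this site. The Dox difference was 2.54, and 0.11 (scaled folds) to 2.54 over the alternatives, with 0.65 at equal list length.

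Other IGF1R sites differed between the lines. A site 131 kb inside the gene (98779460 to 98780122) was gained in K303R, with 6.71 with Dox+E2 and 4.96 with Dox, while all Y537S libraries (16.1, 13.5, 10.5 and 10.7 with Dox+E2, with Dox, with E2 and untreated) and all WT libraries (5.59, 10.3, 6.17 and 5.25) had it. A site 97.9 kb inside the gene was likewise gained in K303R alone, with 6.71 with Dox+E2 and 4.96 with Dox. In Y537S that site had 4.40 with Dox+E2, 5.99 with E2, 8.43 untreated and no peak with Dox, and in WT it had 6.61 with Dox, 6.17 with E2 and none with Dox+E2 or untreated. In Y537S 6.71% of all regions were lost. Of the 10 sites of the axis lost in that line, 6 were among the 48 at IGF1R. The strongest of them, 224 kb inside the gene (98872800 to 98873230), had 12 with E2 and 8.43 untreated in Y537S and no peak with Dox, against 3.36 with Dox+E2 and 6.60 with E2 in K303R and none in WT. Another, 115 kb inside the gene, had 8.24 with E2 and 6.90 untreated in Y537S, 7.44 with Dox and 4.95 with E2 in K303R and 5.14 with Dox in WT. A site 226 kb inside the gene (98874872 to 98875199) was gained in K303R, with 4.19 with Dox+E2 and 4.96 with Dox, and lost in Y537S, with 7.49 with E2 and 4.60 untreated. The 4.19 lay close to the lowest fold listed in K303R without Dox (4.16 untreated, 4.13 with E2). This site was the only site of the 138 gained in 1 form and lost in another, a pattern that 0.940% of all regions had.

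IRS1, the adaptor that docks on the activated receptor, spans chromosome 2, 226731312 to 226799820, on the minus strand, and its upstream window reaches into RHBDD1, a rhomboid protease gene. The number of its 15 sites with a peak ranged from 4 to 8: 8, 8, 7 and 8 were open in Y537S with Dox+E2, with Dox, with E2 and untreated, 8, 6, 5 and 4 in K303R, and 6, 7, 5 and 5 in WT. The mean was 7.17 with Dox and 5.67 without (difference 1.5, exact permutation p = 0.0278, adjusted p = 0.123). The difference was 0.167 with peaks at a −log10 q of 5 or more (exact permutation p = 1), 0.50 at equal list length (p = 0.167) and 1.17 with 20 kb windows (p = 0.139). Of the 15 sites 4 were open in all 12 libraries, as were 9.99% of all regions, and the 4 included the highest folds of the locus. The site 36.1 kb upstream, in RHBDD1 (226835372 to 226836822), had 19.8, 27.8, 41.9 and 49.1 in Y537S, 14.3, 18.2, 20.6 and 11.8 in K303R, and 17.6, 11.8, 22.4 and 9.63 in WT. In Y537S both values without Dox exceeded both values with Dox at this site. In K303R and WT the values with and without Dox overlapped.

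The gained sites of IRS1 were each gained in 1 form. The strongest in Y537S lay 15.1 kb upstream, in RHBDD1 (226814778 to 226815121), and had 17.6 with Dox+E2 and 17.3 with Dox in Y537S, 5.03 with Dox+E2 in K303R, 7.18 with Dox+E2 in WT, and no peak in the other 8 libraries. In K303R a site 7.27 kb inside the gene was gained, with 5.87 with Dox+E2 and 5.79 with Dox. There Y537S had 5.13 with Dox+E2, 5.24 with E2 and 6.13 untreated, and WT had 9.55 with Dox.

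IRS2, the second adaptor of the receptor, spans chromosome 13, 109752695 to 109786583, on the minus strand, and had few sites. All 4 Y537S libraries had 3 of its 5 sites open, K303R had 3, 3, 1 and 0 with Dox+E2, with Dox, with E2 and untreated, and WT had 1, 3, 2 and 1. The mean was 2.67 with Dox and 1.67 without (difference 1, exact permutation p = 0.167, adjusted p = 0.353). The site with the highest fold lay 81.3 kb downstream of the start, past the end of the gene (109704813 to 109705532), and had 3.67 with Dox+E2, none with Dox, 9.73 with E2 and 13.8 untreated in Y537S. K303R had 10.1 with Dox+E2, 6.61 with Dox, 6.60 with E2 and none untreated there, and WT had 6.39, 8.82, 6.17 and 5.25. In Y537S the values with Dox lay below those without. In K303R the value with Dox alone (6.61) was level with that of E2 alone (6.60), and the untreated library, with the shortest list, had no peak. The gained site of IRS2, 42.7 kb downstream (109743767 to 109744189), was gained in K303R, with 4.19 with Dox+E2 and 4.13 with Dox, while Y537S had 6.60, 12, 7.49 and 9.20 and WT had 6.61 with Dox only. Both K303R values lay at or close to the lowest fold listed in that line without Dox (4.16 untreated, 4.13 with E2).

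Sites over the gene starts were mostly open with and without Dox. The site over the IRS1 start, 4922 bp wide (226795375 to 226800296), and the site over the IGFBP2 start, 1831 bp wide (216632822 to 216634652), were open in all 12 libraries. In the IRS1 site the highest summit lay 3.77 kb inside the gene, so its values need not be those of the start. The IGF1R and IGFBP3 start sites lacked a peak in K303R untreated and WT untreated, the libraries with the shortest lists, and in no other library. The IRS2 start site had a peak in all 4 Y537S libraries, with Dox in K303R (4.96) and with E2 in WT (5.40). The IGFBP5 start site was the only one that was gained by the rule: in K303R it had 5.87 with Dox+E2 and 4.13 with Dox and no peak without Dox. The 4.13 was no higher than the lowest fold listed in either K303R library without Dox. At the IGFBP5 start Y537S had 5.13, 5.27, 8.24 and 7.67 with Dox+E2, with Dox, with E2 and untreated, and WT had 9.26 with E2 only.

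**Figure D3:**
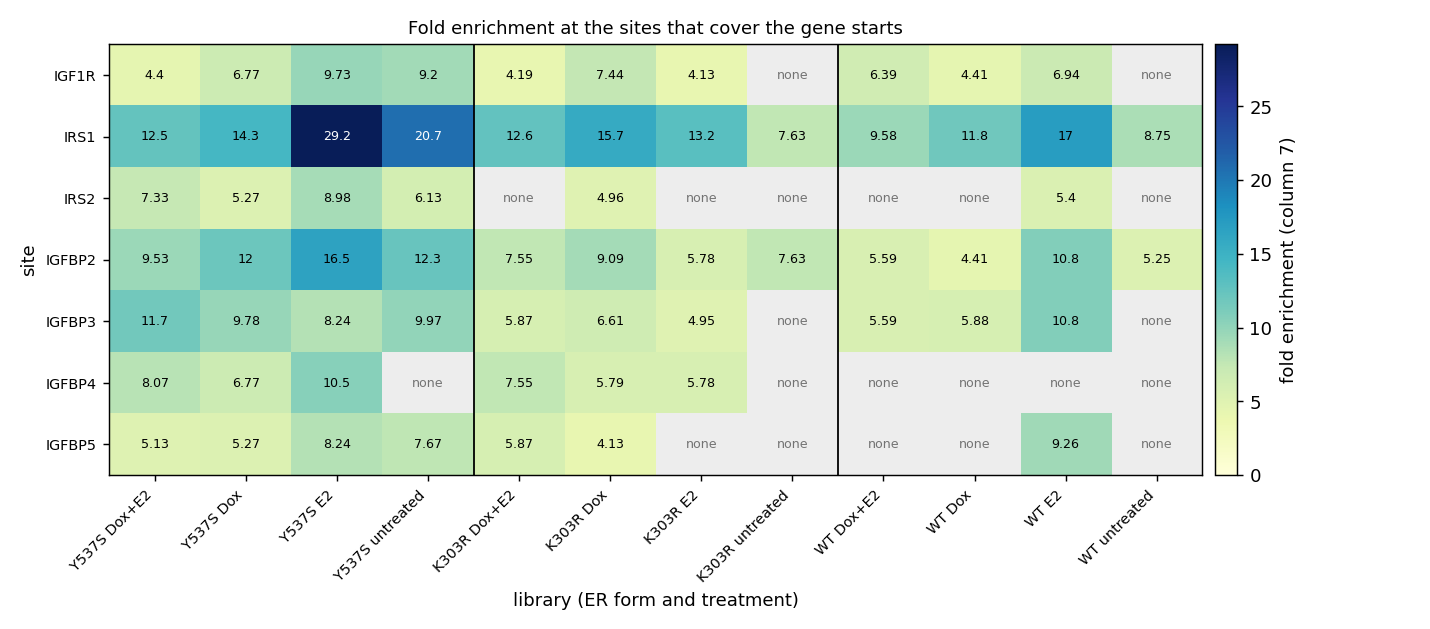
Fold enrichment of the sites that cover the start of each gene (rows) in the 12 libraries (columns, by ER form and treatment); colour and number give the authors' fold, and grey marks a library with no peak. IRS1 and IGFBP2 are open throughout, and the IGFBP4 start has no peak in any WT library.

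At the IGFBP4 start (chromosome 17, 40443442 to 40444105) Y537S had 8.07 with Dox+E2, 6.77 with Dox, 10.5 with E2 and no peak untreated. K303R had 7.55, 5.79, 5.78 and no peak in the same order, and no WT library had a peak. In both mutant lines the untreated library was thus the one without a peak.

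IGFBP3 encodes the main carrier of the growth factors in serum and spans chromosome 7, 45912245 to 45921272, on the minus strand. Its window also takes in IGFBP1, a gene of the same family, and CCDC201. The site with the highest fold of the locus was also gained in all 3 forms. It lies in CCDC201, 40.5 kb downstream of the IGFBP3 start and 7.44 kb from the span of IGFBP1 (45880347 to 45881051), and had 24.9 with Dox+E2 and 24.1 with Dox in Y537S, 7.55 and 4.96 in K303R, and 7.18 and 5.14 in WT. No library without Dox had a peak there, and the values in Y537S with Dox were the highest. The Dox difference was 3.28, and 0.53 (scaled folds) to 2.50 over the alternatives.

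A neighbouring site, 45.1 kb downstream of the IGFBP3 start and 11.5 kb from IGFBP1 (45875722 to 45876949), had 24.2 with Dox+E2 and 20.3 with Dox in Y537S and 9.58 and 3.67 in WT. K303R had no peak there in any library, nor had any line without Dox. The Dox difference was 2.35, and 0.55 (scaled folds) to 2.03 over the alternatives. A pair of IGFBP3 sites had a peak in all 4 Y537S libraries and in no other, a pattern of 2 of the 138 sites (1.45%) and 0.650% of all regions. The site 3.5 kb inside the gene (45917634 to 45918061) had 13.9, 9.78, 15.0 and 6.90 with Dox+E2, with Dox, with E2 and untreated, and the site 49.0 kb downstream of the start (45872150 to 45872749) had 10.3, 11.3, 7.49 and 4.60. They were open in that line with and without Dox, and line and run, as read from the peak names, cannot be told apart for Y537S.

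By number, 10, 12, 7 and 6 of the 13 IGFBP3 sites were open in Y537S with Dox+E2, with Dox, with E2 and untreated, 3, 3, 1 and 0 in K303R, and 3, 4, 2 and 0 in WT. Every Dox library of a form had more open sites than either library of the form without Dox, and the mean was 5.83 with Dox and 2.67 without (difference 3.17, exact permutation p = 0.00926, adjusted p = 0.0862). With all lists limited to the 39522 strongest peaks the difference was 1 (exact permutation p = 0.111). The window of the neighbouring IGFBP1 shares these sites.

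IGFBP4, an inhibitory binding protein gene known to respond to estrogen in ER-positive breast cancer cells, spans chromosome 17, 40443450 to 40457725, on the plus strand, between TOP2A and TNS4. Inside the gene, 5.47 kb from the start, a site (40448646 to 40449417) was gained in all 3 forms. It had 13.2 with Dox+E2 and 10.5 with Dox in Y537S, 8.39 and 7.44 in K303R, and 5.59 and 8.08 in WT, and no peak without Dox in any line. The lowest of the 6 values with Dox, 5.59 in WT with Dox+E2, was above the unscaled floor of every list. Unscaled folds of different libraries are not directly comparable. The median over constant regions was 11.2 in WT with Dox+E2 and 8.32 in untreated K303R cells. With lists cut to equal length, 0 sites of the axis were gained in all 3 forms. The Dox difference of the site inside IGFBP4 was 3.10, and 0.20 (scaled folds) to 3.10 over the alternatives.

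In Y537S, where 18.2% of all regions were gained, 4 of the 10 IGFBP4 sites were gained. Besides the site in the gene, these included 1 lying 16.9 kb downstream of the start, with 11.7 with Dox+E2 and 5.27 with Dox in Y537S, and 1 lying 30.2 kb downstream, with 8.07 and 9.03. Of the other libraries, K303R with Dox+E2 had a peak of 3.36 at the site 30.2 kb downstream, and none had one at the site 16.9 kb downstream. The highest fold of the locus was at a site over an end of TOP2A, 25.4 kb upstream of IGFBP4 (40417311 to 40418577), with 17.6, 19.6, 24.7 and 14.6 in Y537S, 12.6, 9.09, 8.25 and 4.85 in K303R and 7.18, 15.4, 10.0 and 6.13 in WT; it was open in every library. Open IGFBP4 sites numbered 9, 8, 6 and 3 in Y537S with Dox+E2, with Dox, with E2 and untreated, 6, 5, 3 and 1 in K303R, and 3, 4, 3 and 2 in WT. The mean was 5.83 with Dox and 3 without (difference 2.83, exact permutation p = 0.0185, adjusted p = 0.109), and the difference was 0.50 at equal list length.

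IGFBP2 and IGFBP5 lie tail to tail on chromosome 2 (IGFBP2 216632828 to 216664436 on the plus strand, IGFBP5 216672105 to 216695549 on the minus strand) and encode further binding proteins. The highest fold of the axis was in this stretch. A site inside IGFBP5, 11.5 kb from its start (216683546 to 216685129), had 26.4, 27.1, 51.7 and 36.8 in Y537S with Dox+E2, with Dox, with E2 and untreated, 20.1, 23.1, 23.9 and 16.0 in K303R, and 17.6, 30.1, 28.5 and 13.1 in WT. In Y537S both values with Dox were below both without it, and in the other lines the values overlapped. A site between the genes (216664912 to 216666951) had 15.4, 13.5, 39.7 and 35.3 in Y537S, 10.9, 9.92, 15.7 and 8.32 in K303R, and 6.39, 9.55, 13.1 and 6.13 in WT, with a Dox difference of -0.57 (exact permutation p = 0.102, adjusted p = 0.781). Lower folds with Dox in Y537S were common to its constant regions: their median over all regions was 18.3 with Dox+E2, 18.8 with Dox, 26.2 with E2 and 24.5 untreated. At the 42 sites of the axis open in both, the median log2 ratio of Y537S with Dox over untreated was -0.24, against -0.22 over all regions.

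Upstream of IGFBP5, 27.5 kb from its start (216722794 to 216723788), a site was gained in Y537S, with 20.5 with Dox+E2 and 22.6 with Dox, and in WT, with 5.59 and 5.14. K303R had 8.39 with Dox+E2 only. The Dox difference was 2.80, and 0.43 (scaled folds) to 2.40 over the alternatives. Inside IGFBP5, 2.28 kb from its start (216693137 to 216693643), a site was gained in K303R, with 4.19 with Dox+E2 and 3.31 with Dox, and in WT, with 4.79 and 6.61, but was open in all Y537S libraries at 6.60, 13.5, 15.0 and 13.0. The 3.31 is the lowest fold listed in K303R with Dox and lies under the lowest listed in that line without Dox. The Dox difference of this site, 1.28, became -0.03 with the lowest fold listed and -0.64 at equal list length and at a −log10 q of 10 or more. Upstream of IGFBP2, 5.79 kb from its start (216626882 to 216627199), a site had 9.53 with Dox+E2 and 9.03 with Dox in Y537S and no peak in any other library.

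The strongest lost site of the axis lay 29.6 kb upstream of IGFBP2 (216602756 to 216603357). It had 15.7 with E2 and 13.0 untreated in Y537S and no peak with Dox, while K303R had 5.79 with Dox, 4.95 with E2 and 5.55 untreated, and WT had none. Its Dox difference of -1.65 was the lowest of the 138 sites. The 1 site lost in K303R, 1.01 kb upstream of the IGFBP5 start (216696380 to 216696991), had 4.95 with E2 and 5.55 untreated in K303R, against 10.3, 8.28, 9.73 and 8.43 in Y537S and 5.14 with Dox and 6.17 with E2 in WT.

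Open IGFBP2 sites numbered 27, 23, 18 and 18 in Y537S with Dox+E2, with Dox, with E2 and untreated, 17, 14, 11 and 10 in K303R, and 10, 13, 14 and 8 in WT (mean 17.3 with Dox and 13.2 without, difference 4.17, exact permutation p = 0.0463, adjusted p = 0.173). Open IGFBP5 sites, most of them the same, numbered 25, 23, 17 and 14 in Y537S, 16, 13, 10 and 8 in K303R, and 11, 12, 13 and 7 in WT (mean 16.7 with Dox and 11.5 without, difference 5.17, exact permutation p = 0.0278, adjusted p = 0.123). At equal list length these differences had the opposite sign, -3.33 for IGFBP2 (exact permutation p = 0.0185, adjusted p = 0.385) and -1.33 for IGFBP5. In all, 5 of the 7 genes had more open sites with Dox at an unadjusted p under 0.05, against 26.7% of 19405 genes, and 0 had fewer, against 0.0515%. None passed the adjustment, where the smallest adjusted p of any gene was 0.0862. IGFBP2 and IGFBP5, both among the 5, share 30 sites, and the share over all genes was not matched for number of sites. Of the 5, IGFBP3 and IGFBP4 were past the unadjusted threshold with peaks at a −log10 q of 5 or more, IGFBP4 with 20 kb windows, IGFBP3 with labels exchanged only between libraries that share form and E2 status. At equal list length none of the 5 had more open sites past that threshold, and IGFBP2 had fewer.

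**Figure D4:**
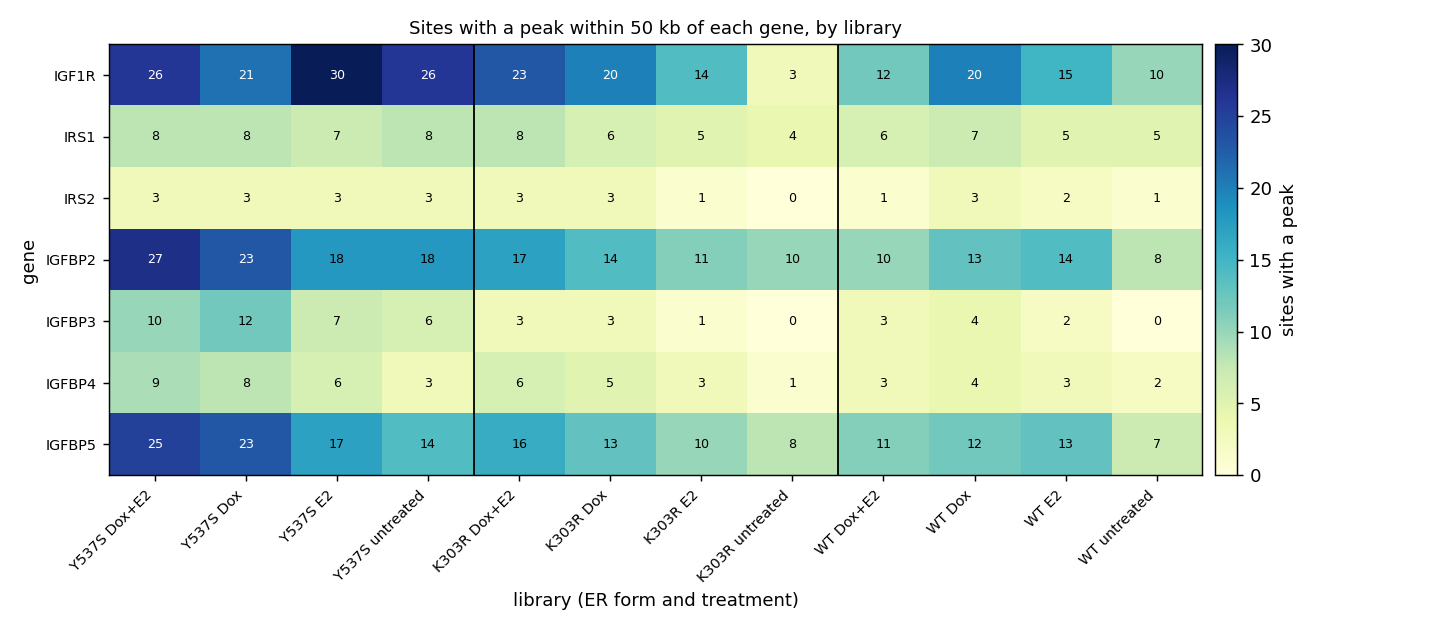
Number of sites with a peak (colour and number) within 50 kb of each gene (rows) in the 12 libraries (columns, by ER form and treatment). IGFBP3 and IGFBP4 have their highest counts, 12 and 9, in the Y537S line with Dox, and IGF1R has its lowest count, 3, in untreated K303R cells.

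The strongest gained sites fell into several patterns across the forms. At 2 of the 138 sites (1.45%, against 1.43% of all regions), Y537S had a peak with Dox+E2 and with Dox, while K303R and WT had one with Dox+E2 only, a pattern that was picked after the data were seen. One was the IRS1 site 15.1 kb upstream, with 17.6 and 17.3 in Y537S, and its Dox difference was 2.24. The other, 21.0 kb inside IGF1R (98669366 to 98669788), had 14.7 with Dox+E2 and 14.3 with Dox in Y537S, 5.03 with Dox+E2 in K303R and 7.18 with Dox+E2 in WT, with a Dox difference of 2.15. In K303R and WT each site had 1 peak of 5.03 or 7.18, and a signal with Dox alone below the lowest fold listed was not detectable.

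**Figure D5:**
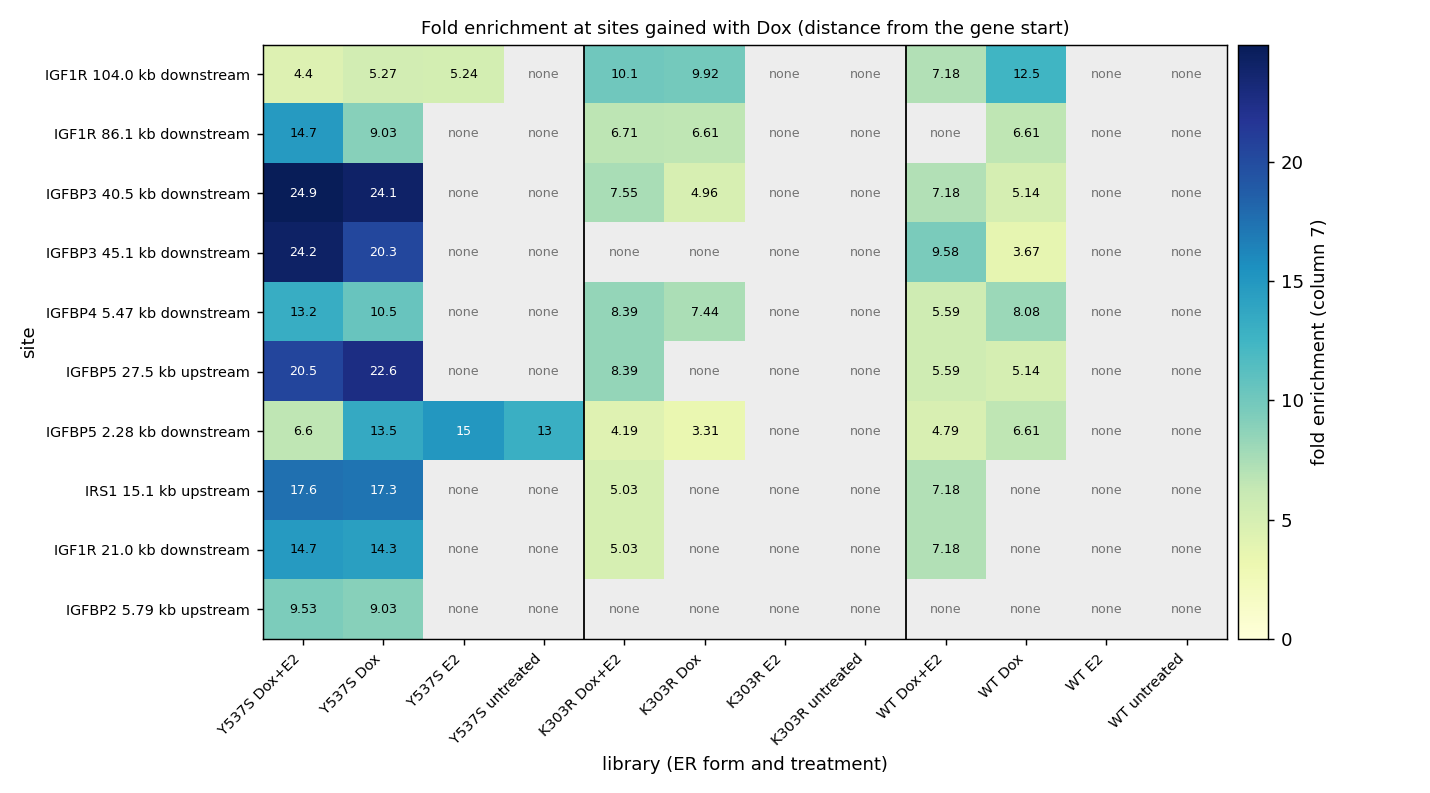
Fold enrichment at 10 sites gained with Dox (rows, named by gene and distance from its start) in the 12 libraries (columns, by ER form and treatment); colour and number give the authors' fold, and grey marks a library with no peak. The rows are the sites gained in at least 2 forms and the strongest of those gained in Y537S alone. Sites gained in K303R alone are not shown. The Y537S libraries with Dox hold the highest values at 8 of the rows, a count that this choice of rows favours. The IGFBP3 and IGFBP4 sites 40.5 kb and 5.47 kb downstream are open in all 6 libraries with Dox and in no other.

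With E2 against no E2, 1 site was higher at an unadjusted p under 0.05 (0.725%, against 0.941% of all regions), 0 were lower (against 0.0162%), and none passed the adjustment. That site, 3.42 kb upstream of IGFBP5 (216698714 to 216699400), had 14.7 with Dox+E2, 17.2 with E2, 11.3 with Dox and 14.6 untreated in Y537S. K303R had 6.71 with Dox+E2 only, and WT had 7.18 with Dox+E2, 6.94 with E2, 4.38 untreated and none with Dox. The E2 difference was 1.15 (exact permutation p = 0.0278, adjusted p = 1). The median E2 difference was 0.18 over the sites of the axis and 0.14 over all regions, and in open sites no member gene passed the test even unadjusted, against 0.273% of all genes higher and 0.0103% lower, with differences of 0 (IRS2) to 3.33 (IGF1R) and exact permutation p of 0.296 to 1.

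The other genes of the pathway were taken as a list of 39, from ligands to AKT and its targets, and all were found in the RefSeq table. Gained sites lay within 50 kb of 35 of them in Y537S, 30 in K303R and 19 in WT, and 10 had a site gained in all 3 forms. IGFBP1 is among the 39, and its window holds the gained sites that are also counted for the member IGFBP3. For the 7 member genes the counts were 6 in Y537S, 7 in K303R, 5 in WT and 2 in all 3 forms. IGFBP2 and IGFBP5 are counted apart, though their windows share 30 sites, among them the 1 site gained in WT at IGFBP2. Over all protein-coding genes the shares were 70.4% in Y537S, 59.9% in K303R, 35.0% in WT and 13.9% in all 3 forms. The shares over all genes given here were not matched for number of sites. Lost sites lay near 24 of the 39 in Y537S, 2 in K303R and 10 in WT, and near 4, 2 and 0 of the 7 member genes, against 47.5%, 1.58% and 21.4% of all genes. Both member genes counted in K303R, IGFBP2 and IGFBP5, owe it to the 1 site that their windows share. In open sites, 14 of the 39 had more with Dox at an unadjusted p under 0.05, against 26.7% of all genes, and 0 had fewer, against 0.0515%, and none passed the adjustment. PTPN1, a phosphatase that acts on the insulin receptor, had 32 sites, 3 of them gained in all 3 forms, and a difference of 8.50 open sites (exact permutation p = 0.00926, adjusted p = 0.0862). SHC1, an adaptor that links receptor tyrosine kinases to RAS, also had 3 sites gained in all 3 forms, and PAPPA2, a protease that cleaves binding proteins, had 2. SHC1 and PAPPA2 each had 39 sites, and 1.30% of all regions were gained in all 3 forms. The p of PTPN1 is the smallest the exact permutation can give. IGFBP1, SHC1, RPTOR, FOXO3 and GSK3B had the same p, with larger differences at RPTOR (12) and FOXO3 (8.83). Values at equal list length were not taken for the list.

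Many genes had a profile over the 12 libraries close to that of a member. The gene more than 1 Mb away whose summed fold enrichment (on the log2(1 + sum) scale) was most like that of each member was SLFN14 for IGF1R (Pearson r = 0.991), RND1 for IRS1 (0.995), CTNNBL1 for IRS2 (0.990), CAPN9 for IGFBP2 (0.994), SETDB1 for IGFBP3 (0.996), ANKS4B for IGFBP4 (0.984) and AGT for IGFBP5 (0.997), over 12 libraries. Of about 16870 genes with at least 5 sites, 1607 (IRS2) to 7891 (IGFBP5) had an r over 0.9 with a member. Depth and list length differed between the libraries, and all genes share those of a library, so the names are a description only.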

How the data were processed

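ATAC-seq was measured in 12 libraries of MDA-MB-453 cells, 1 per ER form and treatment, sequenced as 75 bp paired ends per the labels' protocols. The tools named in the submitters' processing notes are MACS2, Bowtie2, Picard, SAMtools and FastQC, on hg38, and their versions and settings, or whether reads were shifted to the transposase's cut, are not given there. Peaks were called per library, which fixes what a missing peak means: its signal lay under that library's threshold. In the deposited lists the fold enrichment is the ratio of summit pileup plus 1 to background plus 1. Peaks were filtered or ranked here by the deposited −log10 q and −log10 p, and the deposited score, which follows the −log10 q, was not used otherwise.

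Merging, distances and exact permutation tests were computed in Python 3.11.15 with numpy 2.4.6 and pandas 2.3.3. Gene spans, starts and promoters came from RefSeq tables of GRCh38.p14; no genome was used, so sequences of distant sites are not shown. Labels of Dox or E2 were exchanged only within an ER form, and p-values were adjusted by Benjamini-Hochberg over all 166523 regions or all 19405 protein-coding genes. The labels do not say that cultures were separate beyond their treatment, and the p-values cover no more than the spread among these libraries. Where a site held several summits the highest fold was taken. Summits off chromosomes 1 to 22 and X, 54 to 114 in a library, were not used. Named are, per gene, the site over the start, the site with the highest fold, up to 5 sites gained or lost in at least 2 forms and, per form, the 3 strongest sites gained or lost in that form alone; other sites were named after their values were seen. The genes, the pathway list and the pattern of Y537S with Dox were chosen with earlier results of these data known. Alternatives were stricter −log10 q (5 or 10), equal list length, other values for missing peaks, scaled folds, summit windows, 50% coverage, other gene windows, exchange of labels within pairs of libraries, and each form or library left out. The rule for gained sites and the Dox test of sites were checked on simulated libraries of equal depth. These lacked the differences in depth and list length of the real libraries.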

Additional observations from a re-analysis of the deposited data

Results flagged for a closer look

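At IGF1R the number of open sites differed with Dox in opposite directions in the K303R and Y537S libraries, and none of these differences between forms was tested. In K303R the number of open IGF1R sites was higher with Dox by 17 than untreated and higher with Dox+E2 by 9 than with E2, whereas in Y537S the differences were -5 and -4. The K303R untreated list is the shortest of the 12. At equal list length the differences were 4 and 1 in K303R and -3 and 0 in Y537S, so that Y537S did not differ in the presence of E2. At the site 226 kb from the IGF1R start, K303R had a peak in both Dox libraries only and Y537S in both libraries without Dox only. With 1 library per form and treatment no group was large enough to look for a library that stood apart within it.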

How the results depend on the processing

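The labels give no replicate numbers, so no pairing by replicate was made. With labels exchanged only within the 6 pairs of libraries that share form and the other treatment, an alternative chosen after seeing the data whose smallest possible p is 0.0312, 3 sites and 1 gene (IGFBP3, adjusted p = 0.225 over all genes) were higher with Dox at an exact unadjusted p under 0.05, 0 sites were higher with E2, and none passed adjustment. No site or gene passed adjustment under any alternative run. The cause of the changes below was not tested, except that stricter lists and smaller windows hold fewer sites (138 in the main analysis, 118 at a −log10 q of 5, 74 at 10, 48 at equal list length, 111 with 20 kb windows). Sites higher with Dox at unadjusted p under 0.05 (8) numbered 4 at a −log10 q of 5, 1 at 10, 1 at equal list length and 2 with scaled folds; lower ones (0) numbered 1 at equal list length, 4 with missing peaks at the lowest fold and 3 with scaled folds. Sites higher with E2 (1) numbered 0 at a −log10 q of 10, at equal list length and with scaled folds, and 2 with the lowest fold. Genes with more open sites with Dox at unadjusted p under 0.05 (5) numbered 2 at a −log10 q of 5, 0 at equal list length and 1 with 20 kb windows, and those with fewer (0) numbered 1, IGFBP2, at equal list length.

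Sites gained in Y537S (23) numbered 14 at a −log10 q of 10, 6 at equal list length and 13 with 20 kb windows. In K303R (13) they numbered 6 at 5, 3 at 10 and 3 at equal list length. In WT (6) they numbered 2 at 5, at 10, at equal list length and at 50% coverage, and 3 with 20 kb windows. In all 3 forms (2) they numbered 1 at 5 and with 20 kb windows, and 0 at 10, at equal list length and at 50% coverage. Sites lost in Y537S (10) numbered 5 at equal list length. In K303R (1) they numbered 0 at 5, at 10, at 50% coverage and with merged summit windows in place of merged peaks, and 2 with 100 kb windows. In WT (0) they numbered 1 at 5, 4 at equal list length and 1 with 100 kb windows. The pattern of Y537S with Dox (2) numbered 0 at 10 and at equal list length, and 1 at 50% coverage.

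With single libraries left out, which relaxes the rule, gained sites numbered 23 to 36 in Y537S (36 without Dox), 13 to 30 in K303R (27 without E2, 30 without Dox, 21 without Dox+E2) and 6 to 20 in WT (11 without E2, 20 without Dox+E2). Lost sites numbered 13 to 19 in Y537S (19 without untreated, 18 without E2), 1 to 2 in K303R (2 without untreated or Dox) and 1 to 8 in WT (8 without untreated, 2 without Dox). Sites gained in every form numbered 2 to 4, with 4 when Y537S or K303R was left out and 3 without WT.

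Scaling moved the median Dox difference over all regions, 0.34 in the main analysis, to 0.50 at a −log10 q of 10, 0.08 at equal list length, -0.01 with the lowest fold and 0.00 with scaled folds. Sites of the axis with a higher against a lower value were 88 and 50 in the main analysis, 22 and 26 at equal list length, 59 and 79 with the lowest fold, and 41 and 25 with scaled folds. With scaled folds the rest were tied, as values below a common floor were set to it. With the lowest fold, a missing K303R peak was set higher without Dox (4.16 untreated, 4.13 with E2) than with it (3.31 with Dox, 3.36 with Dox+E2). The IGFBP5 site 2.28 kb inside the gene turned to -0.64 at a −log10 q of 10 and at equal list length and to -0.03 with the lowest fold. Open sites with Dox turned to -3.33 for IGFBP2 and -1.33 for IGFBP5 at equal list length. Open sites with E2 turned to -0.167 for IRS1 (at 5, at equal list length and with 100 kb windows), for IGFBP3 (at 5) and for IGFBP4 (at equal list length), and to -0.667 for IGFBP2 and -0.333 for IGFBP5 at equal list length. Depth limits a missing peak: the lowest pileup listed was 3 to 5.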
